A study of Homo sapiens with 6 samples.

Results

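The genes examined here were 4 NF-κB subunits (NFKB1, NFKB2, RELA and RELB), 3 inhibitors of the pathway (NFKBIA, NFKBIE and TNFAIP3) and 3 genes known as its transcriptional targets (BIRC3, ICAM1 and IRF1). They were chosen by name, with earlier results of these data known. Each of the 10 matched 1 gene among the 58825 genes of the deposited table. HK-2 is an immortalized human proximal tubular epithelial line, and OX-LDL is low-density lipoprotein that has been oxidized. The 3 Control libraries came from HK-2 cells labelled as Control, and the 3 OX-LDL libraries came from HK-2 cells given OX-LDL at 25 μg/ml for 48 h. In its cell culture methods the study describes a period of serum starvation before OX-LDL was added. All 6 libraries came from this 1 line, and no batch was named for them. The study asked how a lipid load leads to inflammation and fibrosis in tubular cells, and NF-κB is one of the inflammatory pathways it followed.

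NF-κB is a family of transcription factors that bind DNA as dimers. RELA, RELB and REL carry a transactivation domain, whereas NFKB1 and NFKB2 encode precursors that are processed into shorter DNA-binding partners. In unstimulated cells the dimers are held in the cytoplasm by inhibitors such as the products of NFKBIA and NFKBIE, and signals from cytokine or pattern-recognition receptors activate a kinase complex that marks the inhibitors for degradation. The released dimers enter the nucleus and switch on inflammatory genes together with NFKBIA and TNFAIP3, which then limit the response, and tubular epithelial cells use this pathway to make chemokines and adhesion molecules. The libraries measured RNA only, so the location and phosphorylation of the proteins are outside these data.

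The total of deposited counts was between 62561347 and 76797607 per library. About 4 counts stood for 1 read pair, so 12 counts are about 3 read pairs. The first principal component held 34.75% of the variance and set the OX-LDL libraries apart from the Control libraries. Of the kidney epithelium markers, 10 of 10 reached the minimum level for testing, a mean of 0.1 FPKM (fragments per kilobase of transcript, scaled by the authors for library size). Of the proximal tubule markers, 3 of 12 reached the minimum level. LRP2 and SLC22A6 were listed at 0.0001 FPKM, the value that stands for a count of 0, in each of the 6 libraries. The summed proximal tubule markers ranged from 18.7 to 34.9 FPKM in Control and from 34.9 to 38.5 FPKM in OX-LDL, and the kidney epithelium markers from 228 to 260 FPKM and from 284 to 322 FPKM. The kidney epithelium markers did not move together, since KRT8, KRT19, CDH2 and CDH6 were called higher in edgeR and PAX8 was called lower (log2 fold change -1.23, adjusted p = 0.0182). Of the immune markers 2 of 8 were tested, and their sum ranged from 3.17 to 7.80 FPKM in Control and from 9.20 to 14.2 FPKM in OX-LDL. Most of that sum was CD68, while PTPRC, which marks leukocytes, did not exceed 0.0105 FPKM in any library. The fibroblast markers summed to between 10.1 and 12.01 FPKM in Control and between 8.77 and 14.1 FPKM in OX-LDL, with 2 of 7 tested. LUM, at 8.06 to 13.1 FPKM, made up most of this sum, while DCN was at 0.0001 FPKM in each of the 6 libraries. Of the endothelial markers, 0 of 6 were tested. The part of these shifts in the results below was not tested. In bulk RNA, fewer cells of a type and less RNA per cell cannot be told apart.

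The stretches of promoter shown next belong to the 4 genes that were called changed and to NFKBIA and ICAM1, the members with the highest RNA levels in Control. They come from the RefSeq promoter windows on GRCh38.p14, in which 8 of the 10 genes were matched, and RELB and NFKBIE had no entry. The 250 bases before each annotated start were searched on both strands for the κB consensus, for GGAAATTCC, which is a κB-like sequence, and for TTCNNNGAA, the core letters of the sites that STAT factors bind. Capitals mark the matches, and each stretch is read 5′ to 3′ on the strand of its gene.
NFKB1 (chr4:102501290-102501328, + strand): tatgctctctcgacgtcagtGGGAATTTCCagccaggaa
IRF1 (chr5:132490799-132490917, − strand): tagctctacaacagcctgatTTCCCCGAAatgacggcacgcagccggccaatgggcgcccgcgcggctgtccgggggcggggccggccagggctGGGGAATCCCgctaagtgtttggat
TNFAIP3 (chr6:137867192-137867213, + strand): GGAAAGTCCCgtGGAAATCCCC
RELA (chr11:65663935-65663983, − strand): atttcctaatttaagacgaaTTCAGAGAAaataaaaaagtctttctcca
NFKBIA (chr14:35404801-35404850, − strand): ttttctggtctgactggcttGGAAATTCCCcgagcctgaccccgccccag
ICAM1, first match (chr19:10270924-10270952, + strand): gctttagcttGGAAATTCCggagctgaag
ICAM1, second match (chr19:10271035-10271063, + strand): ggcgcgaggtTTCCGGGAAagcagcaccg

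The κB consensus was found in 9.96% of the 35116 annotated starts of all genes, and in a window of 11.8% of the genes. Among the members it was found in a window of NFKB1, NFKB2, NFKBIA, TNFAIP3, BIRC3 and IRF1. In NFKB1 it lay at -49 to -40 bases from 1 of its 2 annotated starts, and in IRF1 at -50 to -41 bases from its start. TNFAIP3 held 2 matches, at -67 to -58 and at -55 to -46 bases from the start, and this stretch and both ICAM1 stretches overlap an untranslated region in release 29 of GENCODE. In NFKBIA the match lay at -81 to -72 bases from the start. GGAAATTCC was found in 0.41% of all starts and in 0.5% of the genes, and it overlaps the κB match in NFKB1 and NFKBIA. ICAM1 held it at -186 to -178 bases from its start and held no match to the κB consensus. TTCNNNGAA was found in 6.57% of all starts and in 8.09% of the genes. Among the members it was found in IRF1, ICAM1 and RELA, and in RELA it lay at -106 to -98 bases from 1 of the 2 starts. That start, at chr11:65663857, lies upstream of the RELA gene of the deposited table, which begins at 65663090 on the − strand. Neither of the 2 RELA windows held a κB match. BIRC3 held 2 κB matches and NFKB2 held matches before 2 of its 3 starts, and neither gene was called changed. These are matches of letters in a short window, and binding was not measured.

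In the comparison of OX-LDL with Control, RELA was called higher, NFKB1, TNFAIP3 and IRF1 were called lower, and the other 6 genes were not called. A gene was called where the adjusted p of edgeR's quasi-likelihood test, with Benjamini-Hochberg adjustment over the 19510 genes tested, was under 0.05. Among all genes tested, 7.91% were called higher and 7.42% were called lower, against 1 and 3 of the 10 members. The median log2 fold change of the 10 members was -0.11, against -0.00 over all genes tested. The OX-LDL libraries lay above all Control libraries for 1 member and below them for 4 members, where 16.8% and 20.5% of all genes tested did so. None of the 10 genes had a fold change above 2 or below 0.5. The labels do not say whether the 3 libraries of a group were separate cultures, so the p-values measure the spread between these libraries.

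**Figure D1:**
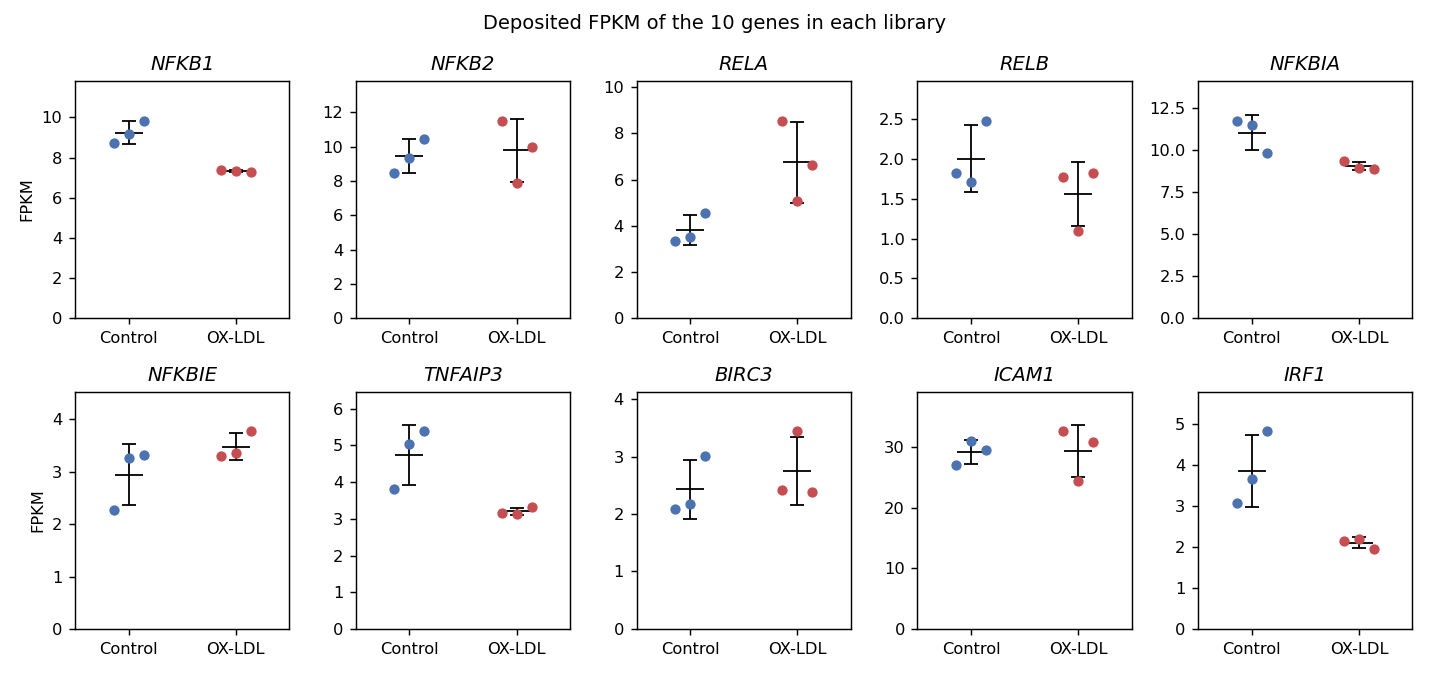
FPKM of each of the 10 genes (y axis, from 0) in the 3 Control libraries (blue points) and the 3 OX-LDL libraries (red points), with the mean as a line and the SD as a bar. RELA is the only gene of the 10 with all OX-LDL points above the Control points, and NFKB1, NFKBIA, TNFAIP3 and IRF1 have all OX-LDL points below them.

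RELA encodes the main transactivating subunit of the canonical pathway (ENSG00000173039, chr11:65653597-65663090, − strand). Its level was 3.34, 3.52 and 4.55 FPKM in the Control libraries and 8.56, 5.06 and 6.64 FPKM in the OX-LDL libraries. The groups did not overlap, and OX-LDL replicates 1 and 3 were further from Control than replicate 2. The mean rose from 3.80 ± 0.653 to 6.75 ± 1.75 FPKM (SD, n = 3 each). The log2 fold change was 0.86 with a standard error of 0.21 (95% interval 0.36 to 1.35, adjusted p = 0.0371 in edgeR), which is a 1.81-fold higher level. The adjusted p was 0.106 without Control replicate 1, 0.124 without Control replicate 2, 0.0970 without OX-LDL replicate 1 and 0.102 without OX-LDL replicate 3, and 0.0528 in limma on log2(FPKM + 0.1). RELA overlaps AP001362 on the other strand, whose mean was 0.381 FPKM in Control against 0.244 FPKM in OX-LDL.

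NFKB1 encodes the precursor of the subunit that most often pairs with RELA (ENSG00000109320, chr4:102501331-102617302, + strand). Its level was 8.72, 9.16 and 9.84 FPKM in Control and 7.37, 7.34 and 7.28 FPKM in OX-LDL. The OX-LDL libraries lay close together and below every Control library, so that NFKB1 moved in the other direction from RELA. The mean fell from 9.24 ± 0.564 to 7.33 ± 0.0419 FPKM (SD, n = 3 each), and the fitted log2 fold change was -0.30 (standard error 0.073, 95% interval -0.47 to -0.13, adjusted p = 0.0366 in edgeR). This is the smallest of the 4 called changes, at 0.811 of the Control level. Leaving out any 1 of the 6 libraries ended the call, with an adjusted p from 0.0609 without Control replicate 1 to 0.119 without OX-LDL replicate 3, and it was 0.0559 with no minimum level.

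The non-canonical pair, NFKB2 and RELB, was not called. NFKB2, whose precursor can hold RELB in the cytoplasm (ENSG00000077150, chr10:102394110-102402524, + strand), was at 8.49, 9.35 and 10.5 FPKM in Control and at 11.5, 7.87 and 9.99 FPKM in OX-LDL. Both the highest and the lowest of the 6 values were OX-LDL libraries. The log2 fold change of NFKB2 was 0.09 with a 95% interval of -0.27 to 0.44 (edgeR adjusted p = 0.751). RELB, the transactivating partner of NFKB2 (ENSG00000104856, chr19:45001449-45038198, + strand), was the least abundant member, at 1.83, 1.71 and 2.48 FPKM in Control and 1.77, 1.10 and 1.82 FPKM in OX-LDL. Its groups overlapped, and OX-LDL replicate 2 was the lowest library. For RELB the log2 fold change was -0.33 with a 95% interval of -0.93 to 0.27 (edgeR adjusted p = 0.439). Its lowest library held 302 counts, for which the counting error alone is 11.5%. Counting errors of this kind cover sampling of reads and not PCR copies.

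The balance between subunits was followed as the ratio of their FPKM values within each library. RELA over NFKB1 was 0.383, 0.384 and 0.462 in Control and 1.16, 0.690 and 0.912 in OX-LDL. In FPKM, RELA was below NFKB1 in all libraries except OX-LDL replicate 1. The mean ratio was 0.410 ± 0.0455 in Control against 0.921 ± 0.236 in OX-LDL (SD, n = 3 each), a log2 difference of 1.14. A two-sided exact permutation test gave p = 0.1, which is the smallest p that 3 against 3 libraries allow, so this design cannot reach 0.05. Every OX-LDL library lay above Control for RELA and below it for NFKB1. The RELA over NFKB1 ratio therefore had to separate the groups, and its p adds nothing to those changes. The ratio of RELB to NFKB2 was 0.215, 0.183 and 0.237 in Control against 0.154, 0.139 and 0.182 in OX-LDL. The log2 difference was -0.42 with the same exact permutation p = 0.1. The highest OX-LDL ratio lay just under the lowest Control ratio. The gene length that FPKM divides by was inferred from counts and FPKM. For the members it was 1.1 to 1.24 times the pooled exons of a gene in release 29 of GENCODE. Between libraries it varied by at most 0.83% for any member, so it cancels when a ratio is compared between groups.

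**Figure D2:**
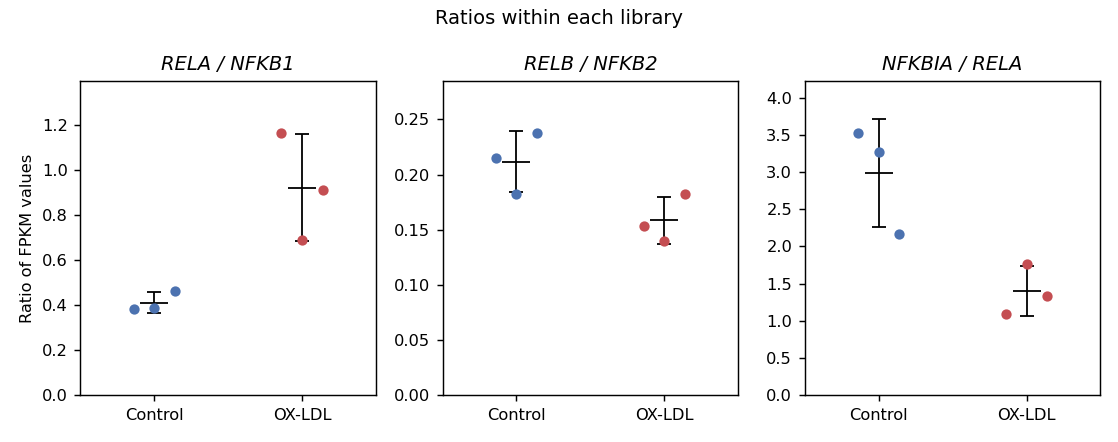
Ratio of FPKM values within each library (y axis, no unit, from 0) for RELA over NFKB1, RELB over NFKB2 and NFKBIA over RELA, in 3 Control libraries (blue) and 3 OX-LDL libraries (red), with the mean as a line and the SD as a bar. RELA over NFKB1 has a mean of 0.410 in Control and 0.921 in OX-LDL, and the other ratios are lower in the OX-LDL libraries.

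Of the inhibitors, TNFAIP3 fell, and NFKBIA and NFKBIE were not called. TNFAIP3 encodes a ubiquitin-editing enzyme that shuts off signalling from the receptors to the kinase complex (ENSG00000118503, chr6:137867214-137883312, + strand). Its level was 3.82, 5.04 and 5.39 FPKM in Control and 3.15, 3.14 and 3.31 FPKM in OX-LDL. All OX-LDL libraries lay below the lowest Control library, and the Control libraries were more spread. The mean fell from 4.75 ± 0.820 to 3.20 ± 0.0955 FPKM (SD, n = 3 each). The log2 fold change was -0.53 (standard error 0.14, 95% interval -0.86 to -0.21, adjusted p = 0.0444 in edgeR), which is 0.691 of the Control level. The adjusted p was 0.134 without Control replicate 2, 0.111 without Control replicate 3, 0.131 without OX-LDL replicate 1, 0.0917 without OX-LDL replicate 2 and 0.113 without OX-LDL replicate 3. It was also above the threshold with upper-quartile factors (0.0548), with no minimum level (0.0600) and in limma (0.0501 and 0.0527 with pseudocounts of 0.1 and 1).

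NFKBIA encodes the inhibitor that is degraded and resynthesized in each round of canonical signalling (ENSG00000100906, chr14:35401511-35404746, − strand). Its level was 11.8, 11.5 and 9.84 FPKM in Control and 9.34, 8.94 and 8.87 FPKM in OX-LDL. The groups did not overlap, but Control replicate 3 was close to the OX-LDL libraries. The mean of 11.04 ± 1.05 FPKM in Control compares with 9.05 ± 0.253 FPKM after OX-LDL (SD, n = 3 each), and the log2 fold change of -0.25 (95% interval -0.49 to -0.01) had an unadjusted edgeR p of 0.0409 and an adjusted p of 0.145. Its ratio to RELA, the subunit it binds, was 3.52, 3.27 and 2.16 in Control and 1.09, 1.77 and 1.34 in OX-LDL. That is a log2 difference of -1.09, with an exact permutation p = 0.1. With NFKBIA below and RELA above Control in every OX-LDL library, this ratio had to separate the groups as well.

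NFKBIE, a further inhibitor of the same family (ENSG00000146232, chr6:44258166-44265788, − strand), was at 2.27, 3.26 and 3.31 FPKM in Control and 3.29, 3.36 and 3.77 FPKM in OX-LDL. The groups overlapped, and the lowest value was that of Control replicate 1. The fitted log2 fold change was 0.27 with a 95% interval of -0.14 to 0.69 (edgeR adjusted p = 0.353).

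Among the target genes, IRF1 fell, and BIRC3 and ICAM1 were not called. IRF1 encodes a transcription factor that NF-κB induces and that switches on interferon-response genes (ENSG00000125347, chr5:132481609-132490773, − strand). Its level was 3.07, 3.66 and 4.82 FPKM in Control and 2.15, 2.20 and 1.95 FPKM in OX-LDL. All OX-LDL libraries lay below the lowest Control library. The mean fell from 3.85 ± 0.886 to 2.10 ± 0.134 FPKM (SD, n = 3 each). Its fitted log2 change of -0.84 (standard error 0.17, 95% interval -1.24 to -0.44, adjusted p = 0.0205 in edgeR) had the smallest adjusted p of the 10 genes, and the Control level was 1.79 times the OX-LDL level. The adjusted p was 0.0591 without Control replicate 2, 0.0693 without OX-LDL replicate 1 and 0.0795 without OX-LDL replicate 3. IRF1 overlaps C5orf56 on the other strand, whose mean was 0.168 FPKM in Control against 0.200 FPKM in OX-LDL, and AC116366, with means of 0.0158 and 0.125 FPKM.

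ICAM1, an adhesion molecule that leukocytes bind and a standard readout of NF-κB activity (ENSG00000090339, chr19:10271093-10286615, + strand), was the most abundant member. Its level was 27.0, 30.9 and 29.5 FPKM in Control and 32.6, 24.5 and 30.8 FPKM in OX-LDL, with the highest and the lowest value both in OX-LDL. The mean of 29.1 ± 1.95 FPKM in Control compares with 29.3 ± 4.27 FPKM after OX-LDL (SD, n = 3 each). The log2 fold change was 0.04 with a 95% interval of -0.24 to 0.31 (edgeR adjusted p = 0.864), so a fold change above 1.24 or below 0.849 was outside the interval. BIRC3, an inhibitor of apoptosis that is recruited to the TNF receptor complex (ENSG00000023445, chr11:102317450-102339394, + strand), was at 2.09, 2.18 and 3.01 FPKM in Control and 2.43, 3.44 and 2.38 FPKM in OX-LDL. The groups overlapped, with Control replicate 3 and OX-LDL replicate 2 as the higher libraries of each. For BIRC3 the log2 fold change was 0.21 with a 95% interval of -0.27 to 0.70 (edgeR adjusted p = 0.545).

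**Figure D3:**
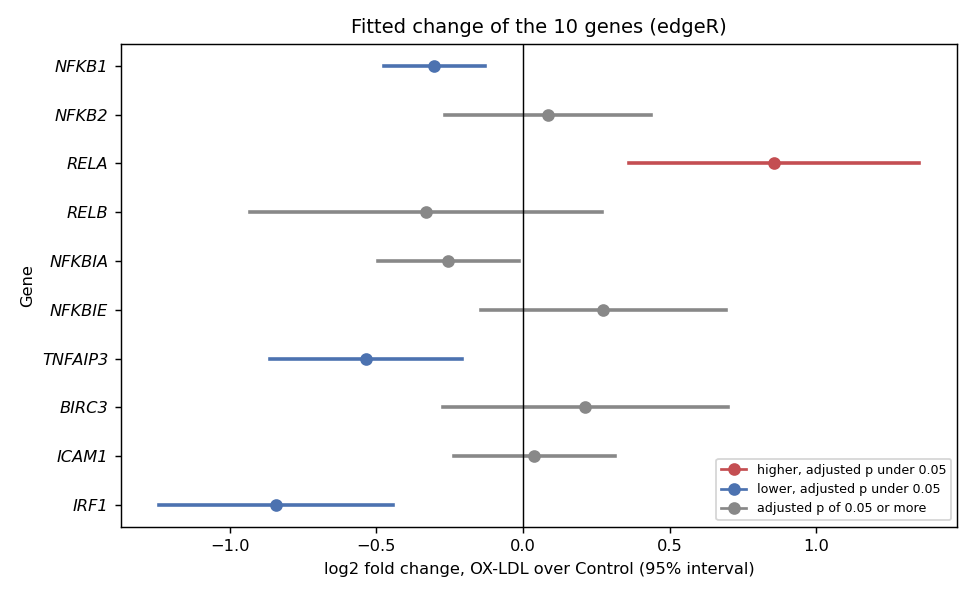
Log2 fold change of OX-LDL over Control (x axis) for each of the 10 genes (y axis), fitted with edgeR, with the 95% interval as a line, red for genes called higher, blue for genes called lower and grey for genes not called. RELA lies at 0.86, NFKB1 at -0.30, TNFAIP3 at -0.53 and IRF1 at -0.84.

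By mean FPKM, the order of levels in Control was ICAM1, NFKBIA, NFKB2, NFKB1, TNFAIP3, IRF1, RELA, NFKBIE, BIRC3 and RELB. ICAM1, NFKB1 and RELA were each clear of the next gene in all 3 libraries, and the other neighbours overlapped. In OX-LDL the order was ICAM1, NFKB2, NFKBIA, NFKB1, RELA, NFKBIE, TNFAIP3, BIRC3, IRF1 and RELB, so RELA stood above TNFAIP3 and IRF1 instead of below them. In OX-LDL the ranges of NFKB2 and NFKBIA, of NFKB1 and RELA, of NFKBIE and TNFAIP3 and of TNFAIP3 and BIRC3 overlapped. The order depends on the length used. With counts per kilobase of the longest transcript, RELA moved to rank 5 and TNFAIP3 to rank 7 in Control, so that RELA stood above TNFAIP3 and IRF1 in both groups, and in OX-LDL RELA was at rank 4 and NFKB1 at rank 5.

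Beyond the 10 genes, 114 genes of the pathway in 7 lists were examined, of which 101 were tested. In edgeR, 10 of them were called higher, 8 were called lower and 83 were not called, with a median log2 fold change of 0.07. The shares are near the 7.91% and 7.42% of all genes. The call counts fell to 5 higher and 3 lower without Control replicate 2 or OX-LDL replicate 1, and to 5 higher and 2 lower without OX-LDL replicate 3, while without Control replicate 3 the numbers were 6 and 6. The median log2 fold change was 0.15 for the other subunits and IκB proteins, 0.05 for the receptors, -1.66 for the 2 ligands tested, -0.00 for the adaptors and kinases, 0.23 for the ubiquitin editing enzymes and other brakes, -0.05 for the other target genes and 0.19 for IRF1 and interferon signalling.

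**Figure D4:**
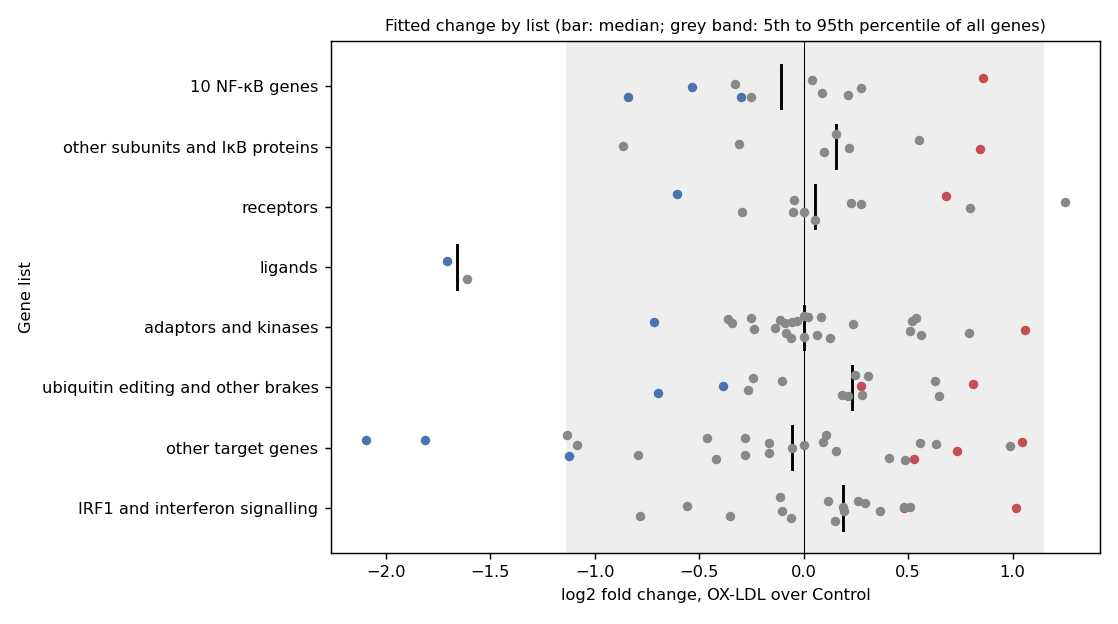
Log2 fold change of OX-LDL over Control (x axis) for the tested genes of each list (y axis), with 1 point per gene, red where called higher, blue where called lower and grey where not called. The black bar is the median of the list and the grey band spans the 5th to the 95th percentile of all genes tested, and the points of most lists lie on both sides of 0.

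In the list of other subunits and IκB proteins, 1 of 7 tested genes was called. REL, a transactivating subunit best known from lymphocytes, was at 1.04, 0.577 and 0.842 FPKM in Control and 1.47, 1.47 and 1.40 FPKM in OX-LDL. It rose with a log2 fold change of 0.85 (edgeR adjusted p = 0.0437), and the OX-LDL libraries lay above all Control libraries. The call was lost without any 1 of the libraries except Control replicate 1, with adjusted p-values of 0.0599 to 0.111. REL overlaps AC010733 on the same strand, whose mean was 0.896 FPKM in Control against 0.374 FPKM in OX-LDL.

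Of the 12 receptors, 11 were tested, 1 rose and 1 fell. CD40, a receptor of the TNF family that feeds both branches of the pathway, was at 5.30, 5.12 and 4.69 FPKM in Control and 7.59, 8.46 and 7.73 FPKM in OX-LDL (log2 fold change 0.68, edgeR adjusted p = 0.0100). TLR3, a sensor of double-stranded RNA, was at 1.81, 1.91 and 2.37 FPKM in Control and 1.34, 1.12 and 1.46 FPKM in OX-LDL (log2 fold change -0.61, edgeR adjusted p = 0.0477). The TLR3 call was lost without each of the 6 libraries in turn, with adjusted p-values of 0.0766 to 0.122, whereas CD40 was called in each of the 15 alternative fits, though not with the fold change limit of 2 (1.605-fold). IL1R1, the receptor for interleukin 1, was at 0.797, 0.234 and 0.564 FPKM in Control and 1.32, 1.22 and 1.22 FPKM in OX-LDL. Its groups did not overlap, but its log2 fold change of 1.25 (standard error 0.41) had an edgeR adjusted p of 0.0861. It was called in 2 other fits, DESeq2 (adjusted p = 0.00655) and limma with a pseudocount of 1 (0.0441), and its adjusted p was 0.0543 to 0.182 with 1 library left out.

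The ligands were scarce, and 2 of 9 were tested. LTB, a membrane-bound cytokine that signals to the non-canonical branch, fell from 1.00, 1.15 and 0.851 FPKM to 0.361, 0.186 and 0.341 FPKM (log2 fold change -1.71, edgeR adjusted p = 0.0196). Its lowest library held 27 counts, and its adjusted p was 0.0541 without Control replicate 1, 0.0729 without Control replicate 2, 0.0509 without OX-LDL replicate 1 and 0.0595 without OX-LDL replicate 3. The counts of TNF were 46, 70 and 25 in Control against 16, 8 and 19 in OX-LDL (log2 fold change -1.61, standard error 0.55, edgeR adjusted p = 0.0977). At about 4 counts per read pair, the OX-LDL values of TNF are within a few read pairs of the limit of 12 counts, which is 3 read pairs. Those of IL1B were 24, 34 and 12 in Control against 0, 16 and 0 in OX-LDL, and it was under the minimum level for testing.

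Of the 25 adaptors and kinases, 25 were tested, 1 rose and 1 fell. MAP3K14, the kinase that starts the non-canonical branch, was at 1.64, 2.98 and 3.26 FPKM in Control and 4.23, 5.34 and 6.46 FPKM in OX-LDL (log2 fold change 1.06, edgeR adjusted p = 0.0449). RBCK1, a subunit of the complex that builds linear ubiquitin chains, was at 16.6, 26.3 and 24.4 FPKM in Control and 12.7, 13.99 and 13.3 FPKM in OX-LDL (log2 fold change -0.72, edgeR adjusted p = 0.0301). The MAP3K14 call was lost without each of the 6 libraries in turn, with adjusted p-values of 0.0566 to 0.136. The RBCK1 call was lost without any 1 of the libraries except Control replicate 1, at 0.0586 to 0.104.

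Among the ubiquitin editing enzymes and other brakes, 14 of 15 were tested, 2 rose and 2 fell. TNIP1, which binds the product of TNFAIP3 and helps it to restrain signalling, was at 8.80, 8.33 and 9.04 FPKM in Control and 15.7, 14.9 and 14.3 FPKM in OX-LDL (log2 fold change 0.81, edgeR adjusted p = 0.00195). TNIP1 thus rose where TNFAIP3 fell, and it was called in each of the 15 alternative fits, though not with the fold change limit (1.75-fold). CYLD, which removes ubiquitin chains from signalling proteins, was at 4.54, 5.85 and 4.68 FPKM in Control and 2.90, 3.46 and 2.71 FPKM in OX-LDL (log2 fold change -0.70, edgeR adjusted p = 0.0175). N4BP1 fell with a log2 fold change of -0.39 (edgeR adjusted p = 0.0154), and OTULIN, which removes linear chains, rose with a log2 fold change of 0.28 (edgeR adjusted p = 0.0491). The CYLD call was lost without Control replicate 2 (0.0560), and likewise without replicates 1 (0.0685) and 3 (0.0686) of OX-LDL, and the N4BP1 call without the same libraries (0.0557, 0.0589 and 0.0574). The OTULIN call was lost without any 1 library, at 0.0840 to 0.145.

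Of the 29 other target genes, 25 were tested, 3 rose and 3 fell, with the chemokine genes CXCL8 and CCL2 lower and the cytokine gene IL6 higher. CXCL8, which attracts neutrophils, was at 40.2, 65.1 and 48.5 FPKM in Control and 10.9, 13.1 and 11.1 FPKM in OX-LDL (log2 fold change -2.09, edgeR adjusted p = 0.00180). CCL2, which attracts monocytes, was at 6.03, 4.27 and 4.66 FPKM in Control and 0.962, 2.06 and 1.09 FPKM in OX-LDL (log2 fold change -1.81, edgeR adjusted p = 0.0149, and 0.0595 without OX-LDL replicate 3). CSF1, a growth factor for macrophages, was at 14.3, 17.7 and 12.8 FPKM in Control and 6.89, 7.00 and 6.17 FPKM in OX-LDL (log2 fold change -1.13, edgeR adjusted p = 0.00402). All 3 genes had every OX-LDL library below every Control library. IL6, an inflammatory cytokine, was at 3.24, 3.29 and 3.46 FPKM in Control and 5.39, 5.18 and 5.74 FPKM in OX-LDL (log2 fold change 0.73, edgeR adjusted p = 0.0104). CXCL8, CSF1 and IL6 were called in each of the 15 alternative fits, and of these IL6 (1.66-fold) was not called with the fold change limit.

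Of the 17 genes of IRF1 and interferon signalling, 17 were tested, 2 rose and 0 fell. An unadjusted edgeR p under 0.05 was found for 5 of the 17, against 5936 of the 19510 genes tested. JAK1, a kinase that relays signals from interferon receptors, was at 53.1, 47.4 and 52.2 FPKM in Control and 69.5, 66.1 and 73.1 FPKM in OX-LDL (log2 fold change 0.48, edgeR adjusted p = 0.0112). JAK1 thus rose while IRF1 fell, and it was called in each of the 15 alternative fits, though not with the fold change limit (1.40-fold). JAK1 overlaps RAVER2 on the other strand, with a mean of 5.77 FPKM in Control against 5.17 FPKM in OX-LDL. The strand setting of the counting is not given in the sources used here.

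**Figure D5:**
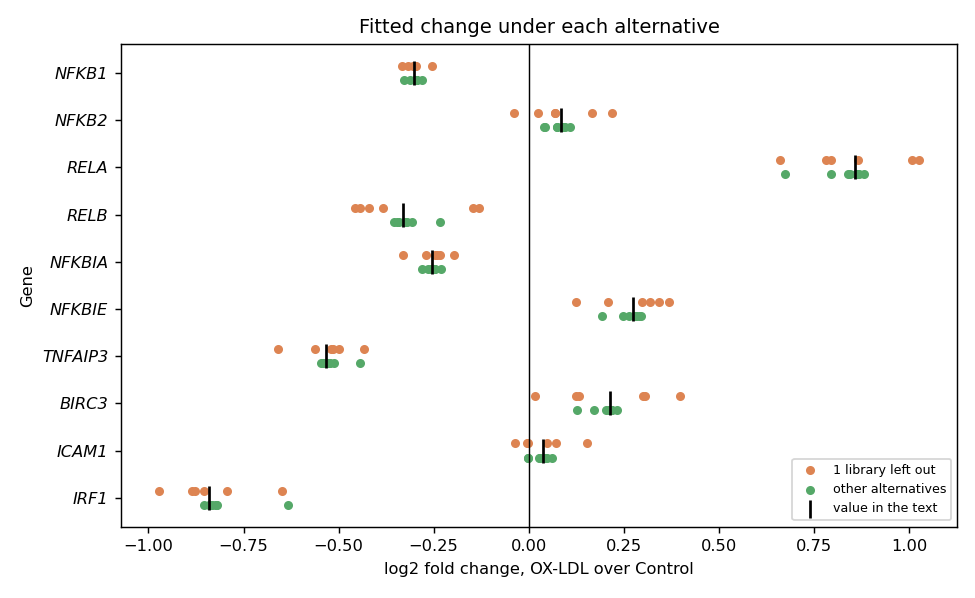
Log2 fold change of OX-LDL over Control (x axis) for each of the 10 genes (y axis), as given in the text (black mark), with 1 library left out (orange points, 6 per gene) and under the other alternatives (green points, 9 per gene). The points of NFKB1, RELA, RELB, NFKBIA, NFKBIE, TNFAIP3, BIRC3 and IRF1 stay on 1 side of 0, and those of NFKB2 and ICAM1 lie on both sides.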

How the data were processed

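RNA of 3 Control and 3 OX-LDL libraries of HK-2 cells was sequenced as read pairs. The authors deposited 1 table with estimated whole-number counts, not scaled for library size. It also held FPKM values, scaled by the authors for gene length and for library size. The submitters' processing notes name cutadapt 1.9, HISAT2 2.0.4, StringTie 1.3.4d, edgeR, DESeq2 and GRCh38. The strand setting and the annotation release are not given in the sources used here. Coordinates are those of the deposited table. An excess of genes at 4, 8 and 12 counts, by 3.26, 2.95 and 2.13 times over neighbouring values, was read as about 4 counts per read pair, and totals were 62561347 to 76797607 counts per library.

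Counts were tested with edgeR 4.0.16 (R 4.3.3; TMM factors, glmQLFit and glmQLFTest, group as its sole factor). The 19510 genes whose mean reached 0.1 FPKM were tested, with Benjamini-Hochberg adjustment. A standard error is the log2 fold change over the square root of its F statistic. The alternatives were DESeq2 1.42.0, RLE and upper-quartile factors, counts divided by 4, limma 3.58.1 on log2(FPKM + 0.1) and log2(FPKM + 1), no minimum, a minimum of 1 FPKM, a replicate block, a fold change limit and leaving out each library in turn. The fit was run on simulated counts drawn from edgeR's own kind of model, with values estimated from these libraries. Such a run checks the code and cannot check the calls. The correlations of the deviations of same-numbered Control and OX-LDL libraries were -0.041, -0.003 and 0.036, so the numbers were not taken to pair libraries.

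The 10 members and the 7 pathway lists were chosen with earlier results of these data known. The text names every member, TNF, IL1B and IL1R1, and from each pathway list at most the 4 genes with the smallest p among those called, or the 2 with the smallest p where none was called. A gene that the rule takes from the IRF1 and interferon signalling list is not reported here. NFKBID and N4BP1 were matched by Ensembl identifier, and of 2 entries for SOD2 the one with more counts was used. Marker lists were kidney epithelium, proximal tubule, immune cells, endothelium and fibroblasts.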

Additional observations from a re-analysis of the deposited data

How the results depend on the processing

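The direction of RELA, NFKB1, TNFAIP3 and IRF1 was the same under each of the 15 alternatives, but their calls were not. RELA was called in 2 of 6 fits that left out 1 library and in 6 of 9 others, NFKB1 in 0 of 6 and 7 of 9, TNFAIP3 in 1 of 6 and 4 of 9, and IRF1 in 3 of 6 and 8 of 9. The count of members called higher, 1, was 0 in limma with either pseudocount, with the replicate block and with the fold change limit, and 0 to 1 with 1 library left out. The count called lower, 3, was 1 with no minimum, 0 with the replicate block and 0 with the fold change limit, and 0 to 2 with 1 library left out. With the replicate block, the adjusted p was 0.0646 for RELA, 0.0916 for NFKB1, 0.0740 for TNFAIP3 and 0.0592 for IRF1, while the calls among all genes went from 2991 to 1636, and 2 of the 6 libraries correlated best with the library of their own number. Fewer samples or degrees of freedom are part of those fits.

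Of the pathway genes, 10 were called higher, against 20 with DESeq2, 6 with no minimum, 6 with the replicate block, 3 with the fold change limit and 5 to 8 with 1 library left out. The 8 called lower became 5 with the replicate block, 4 with the fold change limit and 2 to 6 with 1 library left out. Calls among all genes moved as well, from 2991 to 4430 with DESeq2, 2321 with no minimum and 1161 to 2943 with 1 library left out. Of the 16 called pathway genes that the rule for named genes takes, 7 were called in each alternative fit, before the fold change limit. The sign of NFKB2 turned without OX-LDL replicate 1, with log2 fold changes of -0.0384 to 0.22 over the fits with 1 library left out. The sign of ICAM1 turned in limma (-0.0023 and -0.0020 with pseudocounts of 0.1 and 1) and without Control replicate 1 or without replicate 1 or 3 of OX-LDL, with values of -0.0371 to 0.153, and neither gene was called in any fit. Other scalings moved the median log2 fold change of all genes by less than 0.1. The ratio and level-order alternatives and those for the named pathway genes were added after seeing the data. The cause of these changes was not tested.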

Other observations

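The KEGG NF-kappa B signaling pathway, as the deposited table annotates it, held 93 genes, of which 71 were tested. In edgeR 7 of them were called higher and 9 were called lower, and the median of their log2 fold changes was -0.05. Among all genes tested, 7.91% were called higher and 7.42% lower, with a median of -0.00. Of the 10 members, 8 are in this pathway, and without them 6 of 63 tested genes were called higher and 7 were called lower. Among genes under the minimum level for testing, the counts of IL1A were 0, 23 and 15 in Control against 4, 17 and 4 in OX-LDL. With no minimum level, edgeR gave IL1A an adjusted p of 0.849 and IL1B an adjusted p of 0.433.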
